A study of Mus musculus with 18 samples.

Results

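Cyclic AMP is a diffusible messenger made by adenylyl cyclases when a receptor coupled to the stimulatory G protein Gs is engaged. It activates protein kinase A and the EPAC exchange factors, and the kinase phosphorylates CREB, which binds cyclic AMP response elements and switches on a short list of early response genes. Several products of these genes act back on the pathway, and in brown fat the pathway is best known for driving heat production through UCP1 after adrenergic stimulation. The NR4A proteins Nr4a1, Nr4a2, and Nr4a3 are orphan nuclear receptors whose genes belong to this early response.

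Expression was followed for 10 such genes, namely Nr4a1, Nr4a2, Nr4a3, Crem, Pde4b, Pde4d, Sik1, Rgs2, Gem, and Per1. They were taken by gene symbol from a count table of 48023 genes, none was left out for its values, and all 10 were found there. The set was chosen with earlier results of these data known, so its counts beside those of all genes are descriptions. All 10 also passed the filter on low counts that left 15071 genes for testing. The cells were a mouse brown preadipocyte line, immortalized with the SV40 T antigen and derived from brown fat, and every group shared this background and a growth medium with fetal bovine serum. They received vehicle or FGF6, a secreted fibroblast growth factor, for 4, 8, or 24 h. Each of the 6 groups held 3 libraries, 18 in all. A single line was used, and whether the 3 libraries of a group came from separate cultures is not stated, so the tests below measure the spread between these libraries.

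Library totals ran from 24327816 to 33471980 counts. Of the 8 preadipocyte and stromal markers in the list used here, 7 were expressed and Dlk1 did not exceed 3 counts in any library. Their summed level was 3308 to 4914 CPM (counts scaled to a common library total) in vehicle libraries and 821 to 2534 CPM in FGF6 libraries. Most of this sum was Col1a1, at 3107 CPM with vehicle against 443 CPM with FGF6 at 24 h. At that time Pdgfrb stood at 693 against 134 CPM, Pdgfra at 280.5 against 91.5 CPM, and Ly6a at 243 against 32.3 CPM. Ebf2 and Thy1 were lower by less, at 54.8 against 42.1 CPM and 63.6 against 55.7 CPM. Of the expressed markers Cd34 alone was higher, at 16.5 against 43.0 CPM. The endothelial, leukocyte, and myogenic lists each summed to 8.96 CPM or less in every library, and Emcn, Ptprc, Adgre1, Cd3e, and Pax7 did not exceed 3 counts. Other genes of these lists were detected, with levels that differed between groups. The endothelial Cdh5 had 0 to 3 counts with vehicle at 24 h and 79 to 114 with FGF6. Tek of the same list went the other way, with 3 to 8 counts against 0, and Pecam1 had 1 to 2 against 0 to 4. The macrophage gene Csf1r and the myogenic Myog and Myod1 averaged 3.65, 4.36, and 3.27 CPM with vehicle at 4 h against 1.41, 1.23, and 2.23 CPM with FGF6. The myogenic Des stood at 0.847 against 0.820 CPM then. The mature adipocyte list summed to 63.5 to 178 CPM, with Cfd and Lep at or below 3 counts. At 24 h it summed to 156 to 178 CPM with vehicle and 63.5 to 70.1 CPM with FGF6. Most of it was Fabp4, at 160 against 66.9 CPM. Plin1, Cidec, and Adipoq were lower with FGF6 as well, at 0.864, 4.32, and 0.612 CPM against 0, 0.168, and 0 CPM. The part of all these markers in the results below was not tested. In such bulk libraries, fewer cells of a type and less RNA per cell cannot be told apart. The vehicle library of replicate 3 at 24 h stood apart from its group. A chi-square per degree of freedom against the other two was 34.5 and 37.6, against 2.34 to 7.05 for the 16 other pairs of libraries in a group. It held more counts of CT010467.1, Lars2, Mir6236, Gm26917, and mt-Rnr2. The FGF6 effects at 24 h on the early response genes followed here are therefore also given without it. For all other genes, among them the markers above and the pathway lists below, the 24 h results include that library. No result without it is given for them.

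The promoters of the NR4A genes and Rgs2 are shown because the core letters of the cyclic AMP response element, TGACG on one strand or CGTCA on the other, recur in them more often than in most promoters. RefSeq windows from 250 bases before to 50 bases after the transcript start were given for 7 of the 10 genes, with more than one window for Pde4b and Per1. Each line below is a stretch of such a window, 5′ to 3′ on the strand of its gene, from GRCm38.p6, with the core letters in capitals.
Nr4a1: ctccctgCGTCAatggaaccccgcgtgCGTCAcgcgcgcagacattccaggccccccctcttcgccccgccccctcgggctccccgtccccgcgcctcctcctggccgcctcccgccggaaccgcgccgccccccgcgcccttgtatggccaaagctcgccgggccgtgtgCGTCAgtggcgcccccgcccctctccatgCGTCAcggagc
Nr4a2: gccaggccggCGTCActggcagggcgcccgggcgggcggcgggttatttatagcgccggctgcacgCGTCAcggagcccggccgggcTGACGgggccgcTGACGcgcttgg
Nr4a3: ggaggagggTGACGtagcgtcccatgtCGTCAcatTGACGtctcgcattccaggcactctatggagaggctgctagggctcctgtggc
Rgs2: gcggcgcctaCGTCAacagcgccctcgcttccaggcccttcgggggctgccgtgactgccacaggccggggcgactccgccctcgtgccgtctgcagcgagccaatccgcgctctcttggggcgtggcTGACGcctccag
The Nr4a1 stretch is chr15:101266606-101266816 on the plus strand and ends 30 bases before the start site. The Nr4a2 stretch is chr2:57124103-57124213 on the minus strand and ends 100 bases before it. The Nr4a3 stretch is chr4:48045065-48045152 on the plus strand and ends just before the longest annotated transcript. The Rgs2 stretch is chr1:144004205-144004344 on the minus strand and ends 56 bases before it.

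Each of the NR4A windows held 4 copies of the core, counted on both strands. In Nr4a1 they began 233, 213, 69, and 40 bases before the start site, and in Nr4a2 200, 144, 123, and 111 bases before it. In Nr4a3 they began 231, 213, 205, and 147 bases before it, the last of which lies beyond the stretch printed. The Rgs2 window held 2 copies, each Per1 window held 1, one of 4 Pde4b windows held 1, and the Pde4d window held 0. Among all 32851 RefSeq windows of this length, 20.8% held the core at least once, 5.01% at least 2 times, and 0.231% at least 4 times. The complete palindrome TGACGTCA, which contains the core on both strands, was in 1.79% of all windows and in no window of these genes. The same was true of AAAGGTCA, the site that NR4A proteins bind as monomers, which 1.51% of windows held. These are matches of letters and were not tested for binding.

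FGF6 lowered most of these genes, and its effect changed with time. At 4 h, 7 of the 10 were lower with FGF6 and 0 higher at a false discovery rate (FDR) under 0.05, while among all genes tested 34.2% were lower and 28.6% higher. At 8 h, 8 were lower and 2, Nr4a1 and Nr4a2, were higher, beside 38.4% lower and 32.4% higher among all genes. At 24 h, 6 were lower and 2, Nr4a2 and Crem, were higher, beside 37.9% and 35.9%. Calls were made with the quasi-likelihood test of edgeR, Benjamini-Hochberg adjusted over all genes tested, and every FDR below is of this kind. The median log2 fold change of the 10 genes was -0.37 at 4 h, -0.37 at 8 h, and -0.51 at 24 h, where the median of all genes was -0.05, -0.05, and -0.02.

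Changes of at least 2-fold were fewer. At 4 h Pde4b, Pde4d, and Rgs2 fell that far, beside 6.38% of all genes. At 8 h Pde4d and Rgs2 did, beside 10.9%. At 24 h Nr4a3, Rgs2, and Gem fell that far, beside 15.3%, and Crem alone among the 10 rose that far, beside 7.44% of all genes. The small effects depended on single libraries. Without the FGF6 library of replicate 3, 4 genes instead of 7 were lower at 4 h, and without that of replicate 3 at 8 h, 5 instead of 8 were lower then. One gene, Nr4a1, passed the test as higher at 4 h without the FGF6 library of replicate 2 or without the vehicle library of replicate 1. Without the vehicle library that stood apart, 6 genes were lower and 3 higher at 24 h, the added one being Pde4b. Without it the 24 h log2 fold change was -0.10 for Nr4a1, -1.60 for Nr4a3, -0.46 for Sik1, -0.50 for Per1, and -0.94 for Pde4d, and those of the other genes stand beside their values below. Scaling by library sizes alone moved the median of all genes at 4 h by -0.10 and the share of all calls that were higher from 45.5% to 33.3%, but changed the sign of no FGF6 effect on the 10 genes.

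**Figure D1:**
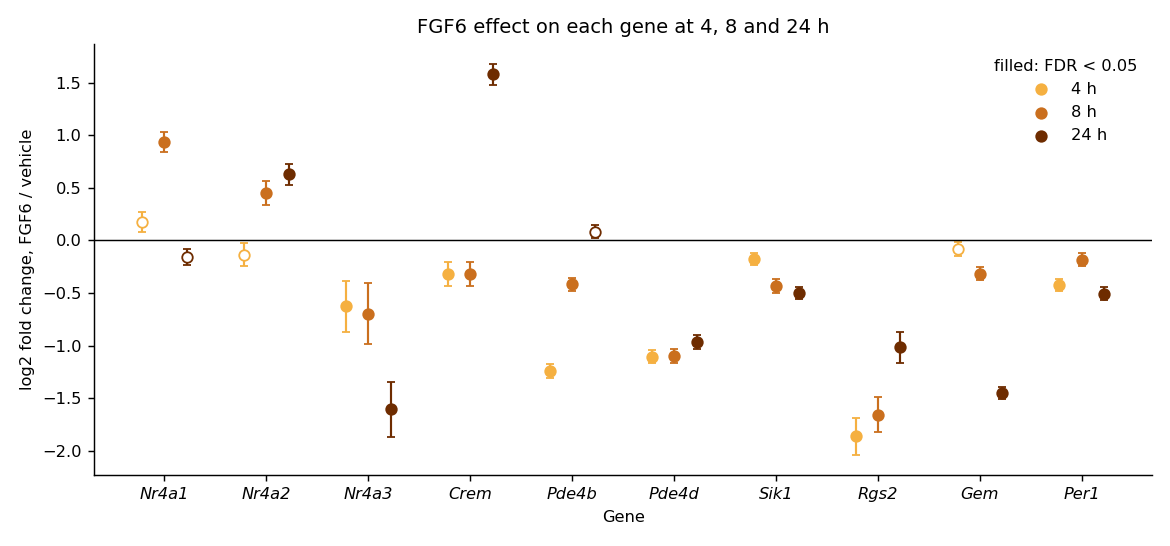
Log2 fold change of each of the 10 genes, FGF6 against vehicle, at 4, 8, and 24 h, with bars of 1 SE on either side from edgeR's quasi-likelihood fit. Filled points passed an FDR of 0.05. Pde4d and Rgs2 lie below 0 at all 3 times, Crem lies above 0 at 24 h with a value of 1.58, and Pde4b moves from -1.24 at 4 h to 0.08 at 24 h.

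The 3 NR4A genes, transcription factors whose activity is set largely by how much of them is made, did not move together. For Nr4a1, on chromosome 15 (101254269 to 101274795 in GRCm38), the vehicle libraries at 4 h read 14.0, 11.3, and 11.8 CPM and the FGF6 libraries 15.6, 12.8, and 13.4 CPM. The 2 groups overlapped. At 8 h the vehicle libraries of Nr4a1 read 9.31, 8.17, and 7.05 CPM and the FGF6 libraries 16.8, 15.6, and 14.6 CPM. All 3 FGF6 libraries lay above all 3 vehicle libraries, which had themselves fallen since 4 h, and the log2 fold change was 0.94 ± 0.10 (SE, FDR = 3.13e-09). At 24 h Nr4a1 read 29.1, 29.1, and 30.3 CPM with vehicle against 27.7, 25.4, and 26.3 CPM with FGF6. The FGF6 libraries were all lower, but the log2 fold change of -0.16 did not pass the test (FDR = 0.0734). The 8 h effect on Nr4a1 exceeded that at 4 h by 0.76 (FDR = 8.62e-05), and the 24 h effect differed from that at 8 h by -1.10 (FDR = 7.13e-08).

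For Nr4a2 (chromosome 2, 57106830 to 57124003), the effect appeared at 8 h and was still present at 24 h. At 4 h the vehicle libraries of Nr4a2 read 7.04, 6.7996, and 6.51 CPM and the FGF6 libraries 7.28, 6.25, and 4.92 CPM. These overlapped, and the log2 fold change of -0.14 did not pass the test (FDR = 0.304). At 8 h Nr4a2 read 5.40, 4.86, and 4.93 CPM with vehicle against 7.23, 6.92, and 6.57 CPM with FGF6, and at 24 h 7.71, 7.09, and 7.86 CPM with vehicle against 12.7, 10.5, and 11.7 CPM with FGF6. The groups separated at 8 h and at 24 h. Nr4a2 had log2 fold changes of 0.45 ± 0.11 (SE, FDR = 0.00111) and 0.63 ± 0.10 (SE, FDR = 5.82e-06). Without the vehicle library that stood apart, the value of Nr4a2 at 24 h was 0.70.

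Nr4a3 (chromosome 4, 48045153 to 48086447) moved the other way and was the least abundant of the 10 genes per length, with 0.339 CPM per kb of exon in vehicle cells at 4 h. Its libraries held only 12 to 75 counts, so its values carry the widest errors here. At 24 h the vehicle libraries of Nr4a3 read 2.63, 2.17, and 2.19 CPM and the FGF6 libraries 0.802, 0.750, and 0.734 CPM. Every FGF6 library was below every vehicle library, with a log2 fold change of -1.61 ± 0.26 (SE, FDR = 5.63e-06). At 4 h Nr4a3 read 2.33, 1.98, and 1.77 CPM with vehicle against 1.37, 1.69, and 0.813 CPM with FGF6. The groups did not overlap, and the log2 fold change was -0.63 (FDR = 0.0264), which became -0.38 (FDR = 0.196) without the FGF6 library of replicate 3. At 8 h Nr4a3 read 1.52, 1.14, and 0.753 CPM with vehicle against 0.814, 0.773, and 0.493 CPM with FGF6. Here the groups overlapped, and the log2 fold change of -0.70 (FDR = 0.0356) became -0.43 (FDR = 0.231) without the vehicle library of replicate 1.

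**Figure D2:**
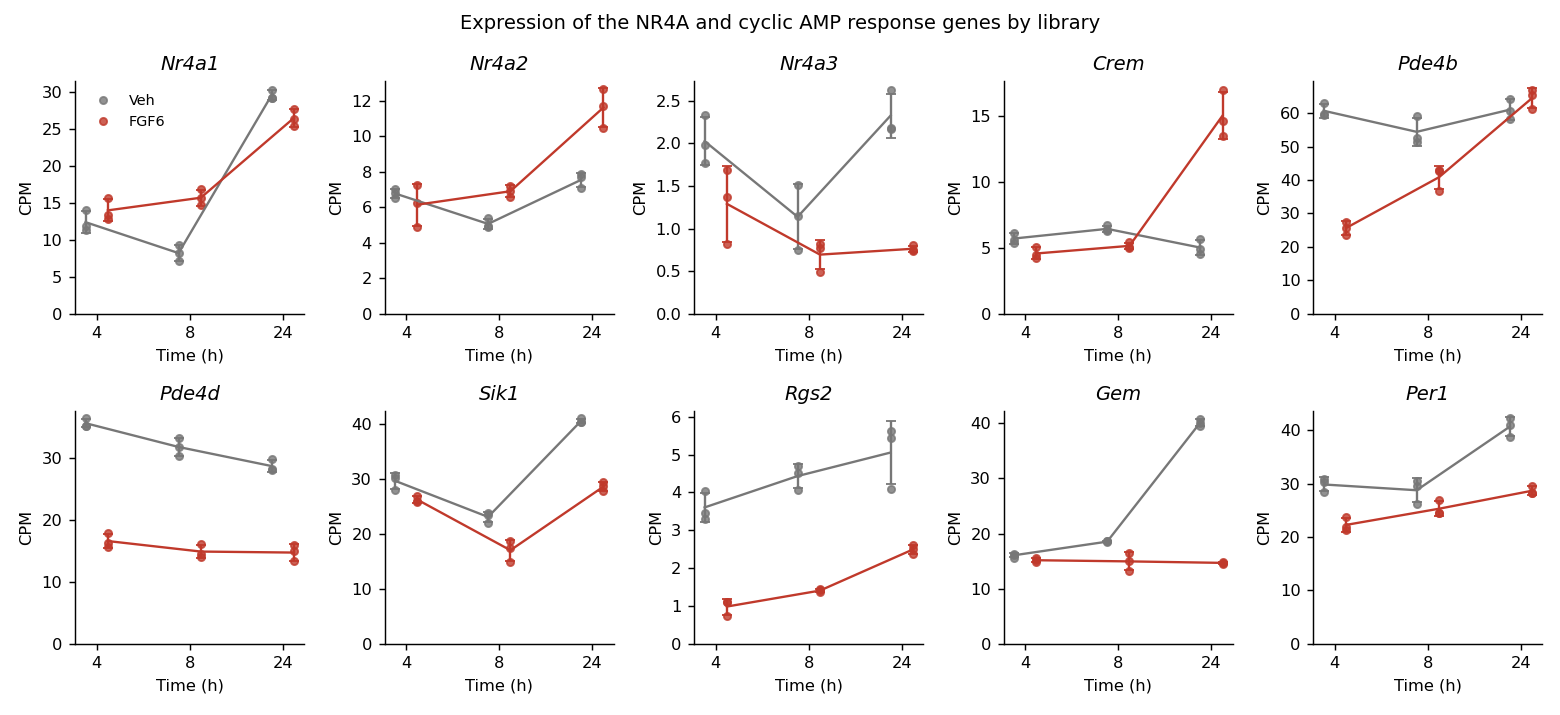
Level in CPM, on an axis from 0, of each of the 10 genes in every library (points) against time in h, for vehicle (grey) and FGF6 (red), with lines through the group means and bars of 1 SD (n = 3). The times are evenly spaced on the axis. Gem and Sik1 rise between 8 and 24 h with vehicle, and with FGF6 Gem stays between 13.2 and 16.5 CPM from 4 to 24 h.

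Crem encodes the cyclic AMP response element modulator, and a promoter inside the gene gives rise to the repressor ICER, an early response product. Counts per gene do not separate these isoforms, and 472 of its 5895 exonic bases are shared with Gm6225 on the opposite strand, which matters because the strand setting of the counting is not stated in the sources used here. At 24 h the vehicle libraries of Crem read 5.64, 4.89, and 4.50 CPM and the FGF6 libraries 17.0, 14.6, and 13.5 CPM. The FGF6 libraries were all far above the vehicle libraries, a 2.99-fold increase with a log2 fold change of 1.58 ± 0.10 (SE, FDR = 3.47e-13) and of 1.56 without the vehicle library that stood apart. Earlier, Crem was slightly lower with FGF6. It read 5.35, 5.59, and 6.14 CPM with vehicle against 5.07, 4.43, and 4.18 CPM with FGF6 at 4 h, and 6.31, 6.26, and 6.71 against 5.40, 5.04, and 4.97 CPM at 8 h. The groups did not overlap at either time, and the log2 fold changes were -0.32 (FDR = 0.0187) and -0.32 (FDR = 0.0127). Both calls were lost on leaving out one library, with an FDR of 0.11 at 4 h and of 0.0758 at 8 h without the FGF6 library of replicate 3 of that time. The 24 h effect on Crem exceeded that at 8 h by 1.90 (FDR = 1.44e-10).

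Pde4b and Pde4d encode cyclic AMP phosphodiesterases, which break the messenger down and are part of its negative feedback. Both fell by more than 2-fold at 4 h and then parted. For Pde4b (chromosome 4, 102087543 to 102607259), the libraries at 4 h read 59.5, 63.1, and 59.7 CPM with vehicle against 27.6, 25.7, and 23.6 CPM with FGF6. At 8 h they read 59.2, 51.5, and 52.6 against 42.9, 36.8, and 42.9 CPM, and at 24 h 60.7, 58.2, and 64.4 against 65.5, 66.9, and 61.3 CPM. The groups were separate at 4 and 8 h and overlapped at 24 h, while the vehicle libraries stayed between 51.5 and 64.4 CPM. The log2 fold change went from -1.24 ± 0.07 (SE, FDR = 1.63e-14) through -0.42 (FDR = 2.34e-06) to 0.08 (FDR = 0.234). Without the vehicle library that stood apart the last of these was 0.16 (FDR = 0.0298). The difference between the 24 h and 4 h effects on Pde4b was 1.33 (FDR = 4.01e-12).

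Pde4d (chromosome 13, 108449948 to 109953461) remained low throughout. Its libraries read 35.2, 36.4, and 35.2 CPM with vehicle against 15.6, 16.2, and 17.9 CPM with FGF6 at 4 h, and 33.1, 31.8, and 30.3 against 14.0, 14.6, and 16.1 CPM at 8 h. At 24 h they read 28.2, 29.8, and 28.1 against 15.9, 13.3, and 14.9 CPM. No FGF6 library reached a vehicle library at any time. The log2 fold changes of Pde4d were -1.11 ± 0.06 (SE, FDR = 6.72e-14), -1.10 ± 0.06 (SE, FDR = 6.66e-14), and -0.96 ± 0.07 (SE, FDR = 1.03e-12), and no difference between times passed the test. The 24 h effect minus the 4 h effect on Pde4d was 0.14 ± 0.09 (SE, FDR = 0.207), and passed with scaling by library sizes alone, at 0.23 (FDR = 0.0351).

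Sik1 encodes a salt-inducible kinase that holds the CREB coactivators of the CRTC family in the cytoplasm. At 24 h its libraries read 40.4, 40.4, and 41.1 CPM with vehicle against 28.7, 27.8, and 29.5 CPM with FGF6. At 8 h Sik1 read 23.5, 23.8, and 22.1 against 18.7, 17.5, and 14.9 CPM, and at 4 h 30.8, 30.2, and 28.1 against 26.9, 25.8, and 26.1 CPM. FGF6 libraries were lower at all 3 times with no overlap. The log2 fold change was -0.18 at 4 h (FDR = 0.00999), -0.43 at 8 h (FDR = 1.14e-06), and -0.50 at 24 h (FDR = 1.42e-08), and the 24 h effect differed from that at 4 h by -0.33 (FDR = 0.00151). The 4 h call for Sik1 was lost without either the FGF6 library of replicate 2 (FDR = 0.0818) or that of replicate 3 (FDR = 0.06).

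Rgs2 encodes a regulator of G-protein signaling that speeds the shut-off of G proteins and also restrains some adenylyl cyclases. Its libraries at 4 h read 3.31, 3.46, and 4.04 CPM with vehicle against 0.740, 1.12, and 1.10 CPM with FGF6. At 8 h Rgs2 read 4.07, 4.70, and 4.52 against 1.37, 1.41, and 1.44 CPM, and at 24 h 4.10, 5.43, and 5.63 against 2.37, 2.50, and 2.61 CPM. FGF6 libraries were lower at each time without overlap, and rose from 4 to 24 h while staying under the vehicle level. The fall in Rgs2 was 3.64-fold at 4 h (log2 fold change -1.86 ± 0.18, SE, FDR = 1.57e-09), 3.15-fold at 8 h (FDR = 1.63e-09), and 2.02-fold at 24 h (FDR = 1e-06). The effect at 24 h was smaller than at 4 h by 0.85 (FDR = 0.00419), and without the vehicle library that stood apart the 24 h log2 fold change was -0.90.

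Gem encodes a small GTPase of the RGK family that dampens voltage-gated calcium channels. In vehicle cells it more than doubled between 8 and 24 h, and in FGF6 cells it did not. The vehicle libraries of Gem read 16.4, 15.6, and 16.2 CPM at 4 h, 18.4, 18.6, and 18.6 CPM at 8 h, and 40.0, 40.8, and 39.5 CPM at 24 h. The FGF6 libraries read 15.2, 15.5, and 14.7 CPM at 4 h, 15.1, 13.2, and 16.5 CPM at 8 h, and 14.4, 14.9, and 14.7 CPM at 24 h. Each FGF6 group lay below its vehicle group, narrowly at 4 h and by 2.73-fold at 24 h. The log2 fold change of Gem was -0.08 at 4 h (FDR = 0.276), -0.32 at 8 h (FDR = 7.97e-05), and -1.45 ± 0.06 at 24 h (SE, FDR = 2.42e-17), and -1.42 at 24 h without the vehicle library that stood apart. The 24 h effect differed from that at 8 h by -1.14 (FDR = 6.27e-11).

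Per1, a repressor of the circadian clock whose promoter answers CREB, was lower with FGF6 at all 3 times by less than 2-fold. At 4 h its libraries read 30.8, 30.4, and 28.4 CPM with vehicle against 23.7, 21.3, and 21.8 CPM with FGF6, and at 24 h 42.3, 41.04, and 38.7 against 28.2, 29.6, and 28.2 CPM. Neither time showed overlap, and the log2 fold changes were -0.42 (FDR = 1.38e-06) and -0.51 (FDR = 2.18e-08). At 8 h Per1 read 29.6, 30.5, and 26.2 CPM with vehicle against 27.0, 24.5, and 24.5 CPM with FGF6. These groups overlapped, and the log2 fold change of -0.18 (FDR = 0.00871) became -0.12 (FDR = 0.128) without the FGF6 library of replicate 3 and -0.14 (FDR = 0.066) without the vehicle library of replicate 2.

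Counted by separation alone, 8 of the 10 genes had all FGF6 libraries below all vehicle libraries at 4 h, beside 36.1% of all genes. At 8 h the count was 6 below, beside 39.6%, and 2 above, beside 34.2%, and at 24 h it was 7 below, beside 38.1%, and 2 above, beside 36.7%. With 3 libraries against 3, an exact two-sided permutation test of one gene cannot go below a p of 0.1.

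The vehicle baseline itself moved. Between 4 and 8 h of vehicle, 7 of the 10 genes differed, beside 43% of all genes, with Gem higher and Nr4a1, Nr4a2, Nr4a3, Sik1, Pde4b, and Pde4d lower. Without the vehicle library of replicate 3 at 8 h the count was 4. Between 8 and 24 h, 9 differed, beside 49.2% of all genes. Nr4a1 rose by 1.85 on the log2 scale (FDR = 1.72e-14), Gem by 1.11 (FDR = 3.78e-14), Nr4a3 by 1.02 (FDR = 0.000965), and Sik1 by 0.81 (FDR = 1.87e-11). Nr4a2, Per1, and Pde4b also rose, Crem and Pde4d fell, and Rgs2 did not pass the test. Without the vehicle library that stood apart, Crem, Pde4b, and Pde4d no longer passed and 6 genes were left. The handling of the cells between these times was not tested as a source of the vehicle changes.

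The change in the FGF6 effect between times was tested directly. It passed for 6 of the 10 genes between 4 and 8 h, beside 30.6% of all genes, for 6 between 8 and 24 h, beside 45.1%, and for 8 between 4 and 24 h, beside 53.5%. The count between 4 and 8 h was 3 without the FGF6 library of replicate 2 or of replicate 3 at 4 h. From 4 to 24 h the effect moved up for Nr4a2, Crem, Pde4b, and Rgs2, and down for Nr4a1, Nr4a3, Sik1, and Gem. For Per1 and Pde4d no difference over that interval passed the test. Across any pair of times a difference passed for 9 genes, all but Pde4d, beside 64.4% of all genes. Several of these calls were not stable. Those between 4 and 8 h for Gem, Sik1, and Per1 were lost in 11, 7, and 6 of the 12 fits that left out one library, and those between 4 and 24 h for Nr4a1 and Nr4a3 in 6 and 5 of 12.

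Upstream, the genes that produce and sense cyclic AMP were described from lists of their names. The counts below stand beside 28.6% higher and 34.2% lower among all genes at 4 h, 32.4% and 38.4% at 8 h, and 35.9% and 37.9% at 24 h, or 62.8%, 70.8%, and 73.8% in either direction. Among the 7 listed receptors coupled to Gs, 6 were tested and 2 were higher and 2 lower at each time. Those higher were Calcrl and Adora2b at 4 and 8 h, and Calcrl and Adora2a at 24 h. Adora2a had 0 to 10 counts in vehicle libraries and 15 to 26 with FGF6 at 24 h. It passed the filter on low counts only through its FGF6 libraries. Calcrl, the calcitonin receptor-like receptor that binds CGRP and adrenomedullin with a RAMP partner, went at 4 h from 9.48 ± 1.08 up to 63.3 ± 2.75 CPM (SD, n = 3). At 8 h it rose from 7.47 ± 0.303 to 71.2 ± 3.18 CPM, and at 24 h from 12.6 ± 0.755 to 33.3 ± 1.01 CPM. Its log2 fold change was 2.74, 3.25, and 1.40 in that order, the last with an FDR of 3.44e-16. Of 4 G protein alpha subunits, 3 were tested. Gnai2, an inhibitory subunit, was lower at all 3 times, and Gnas, the stimulatory subunit, passed the test at 8 h alone, with a log2 fold change of 0.43 (FDR = 0.000203), though 2457 of its exonic bases are shared with genes on the opposite strand.

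Of the 10 adenylyl cyclases, 7 were tested, and 2 were higher at each time while 4 were lower at 4 h, 4 at 8 h, and 5 at 24 h. Among all genes, 28.6% to 35.9% were higher and 34.2% to 38.4% lower at these times. Adcy7 went up at 4 h from 12.7 ± 0.215 to 44.6 ± 0.437 CPM, and at 8 h from 7.97 ± 1.39 to 55.03 ± 0.991 CPM (SD, n = 3). At 24 h its log2 fold change was 1.65 ± 0.06 (SE, FDR = 6.55e-18). Adcy8, a cyclase stimulated by calcium and calmodulin, had 2 to 6 counts in vehicle libraries, and 24 to 50 counts with FGF6 at 4 h, 186 to 206 at 8 h, and 246 to 318 at 24 h, a mean of 10.04 ± 1.44 CPM at the last time (SD, n = 3). Adcy8 is counted among the 2 higher at each time, but it passed the filter on low counts only through its FGF6 libraries. Adcy4 and Adcy9 were lower at 24 h, with log2 fold changes of -1.34 (FDR = 3.66e-10) and -1.24 (FDR = 1.3e-12). Adcy6, the most abundant cyclase listed, had a lower mean with FGF6 at each time. It stood at 128 against 107 CPM at 4 h, 134 against 110 CPM at 8 h, and 151 against 85.3 CPM at 24 h.

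Downstream of the messenger, 8 of 9 genes for protein kinase A subunits and inhibitors were tested and all 8 passed at each time, where 62.8%, 70.8%, and 73.8% of all genes did, with 2 higher and 6 lower at 4 h and at 8 h, and 3 higher and 5 lower at 24 h. Prkar2a, a type II regulatory subunit, rose from 168 ± 4.86 to 274 ± 0.983 CPM at 4 h, while Prkar2b, the type II subunit prominent in fat, fell from 127 ± 1.35 to 69.3 ± 1.83 CPM (SD, n = 3). At 24 h Prkar1a, a type I regulatory subunit, fell from 944 ± 31.0 CPM in vehicle libraries to 528 ± 1.06 CPM (SD, n = 3), and its log2 fold change was -0.84 ± 0.03 (SE, FDR = 3.5e-19). Prkar1b, the other type I subunit listed, was lower as well (-0.53, FDR = 1.64e-09). Of the EPAC factors, Rapgef4 rose at all 3 times, by 2.97 ± 0.32 on the log2 scale at 24 h (SE, FDR = 5.46e-09), when Rapgef3 was lower (log2 fold change -0.50, FDR = 3.02e-06). Rapgef4 was scarce, with 2 to 24 counts in vehicle libraries and 133 to 142 with FGF6 at 24 h. Of the 7 CREB factors and coactivators, 2 were higher and 1 lower at 4 h, 2 and 2 at 8 h, and 4 and 2 at 24 h, none of them by 2-fold, with Atf1 higher at all 3 times (0.30 at 24 h, FDR = 5.59e-07) and Crtc1 lower at 24 h (-0.35, FDR = 3.84e-07). Of 13 other cyclic AMP phosphodiesterases, 9 were tested, with 2 higher and 3 lower at 4 h, 1 and 5 at 8 h, and 4 and 5 at 24 h. Pde3a, a phosphodiesterase inhibited by cyclic GMP, was lower at 24 h (-1.78, FDR = 4.05e-12), and Pde1b went from 1.07 at 4 h (FDR = 5.19e-13) to -1.46 at 24 h (FDR = 4.44e-15).

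**Figure D3:**
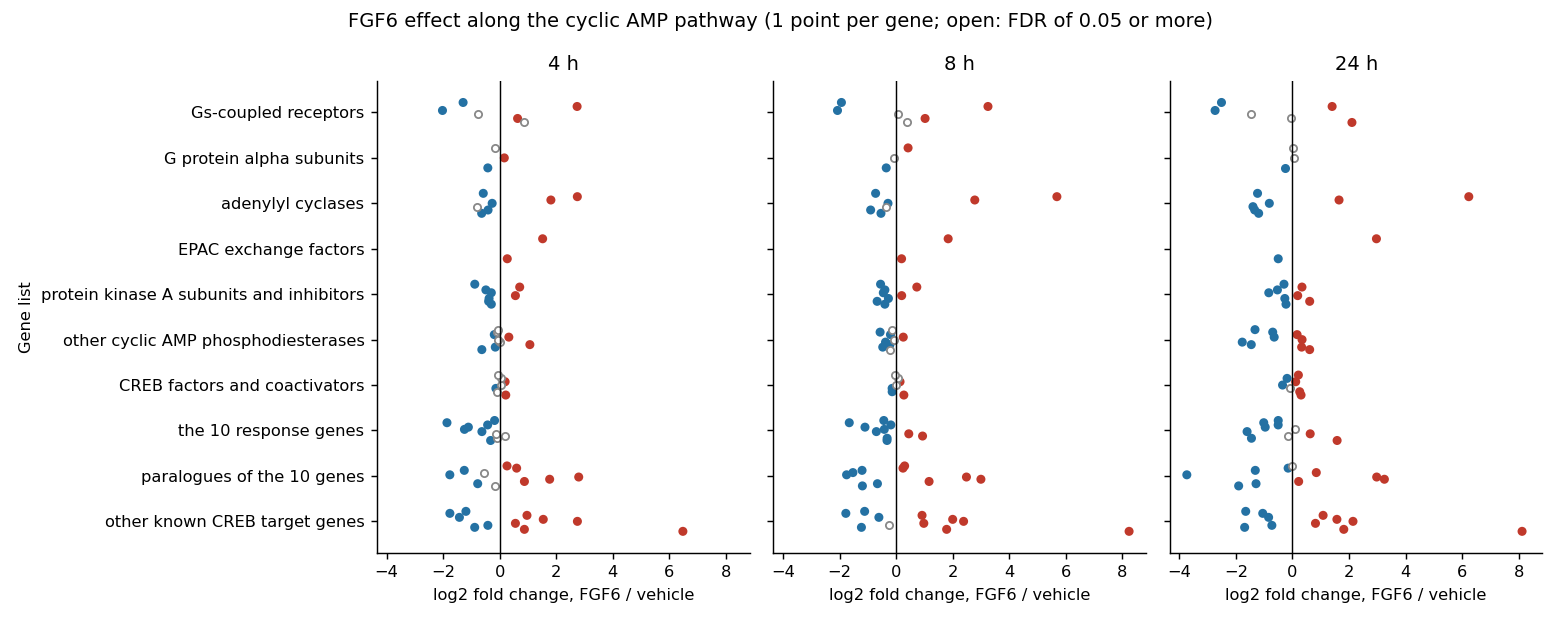
Log2 fold change, FGF6 against vehicle, of every tested gene in each list along the cyclic AMP pathway at 4, 8, and 24 h, 1 point per gene, with red above 0 and blue below 0 for an FDR under 0.05 and open points for the rest. The points farthest to the right are Areg in the lower list and, from 8 h, Adcy8 among the cyclases, both with 16 counts or fewer in every vehicle library, and Ucp1, with no count in any vehicle library, is left out.

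All 10 paralogues listed for these genes were tested, with 5 higher and 3 lower at 4 h, 5 and 5 at 8 h, and 4 and 5 at 24 h, beside 62.8%, 70.8%, and 73.8% of all genes called in either direction. Beside Rgs2, the G-protein regulator Rgs4 fell from 39.5 ± 3.41 to 2.95 ± 0.548 CPM at 24 h, while Rgs16 rose from 7.10 ± 0.460 to 56.3 ± 1.17 CPM (SD, n = 3). Their log2 fold changes were -3.74 (FDR = 1.08e-20) and 2.98 (FDR = 3.01e-20). Beside Gem, the RGK GTPase Rem2 rose by 3.25 ± 0.31 on the log2 scale at 24 h (SE, FDR = 6.17e-10). Rem2 was scarce, with 7 to 24 counts with vehicle at that time and 115 to 163 with FGF6. Rrad was lower at 4 h (-1.25, FDR = 1.36e-10). Its means were also lower at 8 h, 11.4 against 4.96 CPM, and at 24 h, 15.9 against 6.41 CPM. Beside Per1, the clock repressor Per2 was lower at 24 h by a larger amount, -1.90 (FDR = 2.07e-13).

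Of 15 other genes known as CREB targets, 12 were tested, with 6 higher and 5 lower at 4 h, 6 and 4 at 8 h, and 7 and 5 at 24 h, beside the same shares of all genes. Ucp1 is among the 12 and is counted as higher at 24 h. It passed the filter on low counts only through the FGF6 libraries of that time, so the filter itself selected it for being high there. Areg, with few counts in vehicle libraries, owed its place in the test largely to its FGF6 libraries. Areg, which encodes the EGF receptor ligand amphiregulin, had 2 to 16 counts in vehicle libraries and rose to 36.0 ± 2.77, 37.4 ± 0.461, and 85.9 ± 2.35 CPM with FGF6 at 4, 8, and 24 h (SD, n = 3). Fosb, an AP-1 subunit, rose by 2.75, 2.39, and 2.14 on the log2 scale, the last with an FDR of 1.21e-12. Nfil3, a basic leucine zipper repressor, fell from 52.7 ± 2.00 to 15.5 ± 1.13 CPM at 4 h (SD, n = 3, edgeR FDR = 9.44e-18). Ppargc1a, the coactivator of mitochondrial and thermogenic genes, fell from 8.97 ± 0.223 to 2.85 ± 0.265 CPM at 24 h (SD, n = 3), and its log2 fold change was -1.65 ± 0.13 (SE, FDR = 7.98e-12). Ucp1, the uncoupling protein of brown fat, had 0 counts in every library except the 3 of FGF6 at 24 h, which held 17 to 25 counts, a mean of 0.739 ± 0.158 CPM (SD, n = 3).

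Across the 18 libraries, the levels of the 10 genes followed each other only in part. Pearson's r of the log2 CPM, a description over libraries that share treatments and times, was 0.79 for Nr4a1 with Nr4a2 but -0.13 for Nr4a2 with Nr4a3. It was 0.84 for Per1 with Gem and 0.82 for Pde4b with Rgs2. Over all genes with a mean of at least 1 CPM, the patterns most like Nr4a1 were those of Nop53 (r = 0.95) and Ppp1r15a (r = 0.94), and those most like Nr4a3 were Ripor1 (0.93) and Lzts2 (0.92). Rpl13a (0.92) was among the patterns most like Nr4a2. Per kb of exon, the levels in vehicle cells at 4 h ran from 7.63 CPM for Gem through 5.79 for Sik1, 5.76 for Pde4b, and 5.30 for Per1 to 3.52 for Nr4a1 and 2.97 for Pde4d. Below these were Nr4a2 at 1.67, Rgs2 at 0.993, Crem at 0.966, and Nr4a3 at 0.339 CPM per kb.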

How the data were processed

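RNA from the 18 libraries was sequenced, and per the labels and methods the authors mapped reads onto GRCm38 by STAR, then used featureCounts of Subread with a GENCODE annotation. The deposited table holds raw counts per gene, without normalization. The annotation release, strand setting, and treatment of multiply mapped reads are not given in the sources used here. Symbols, positions, and exonic lengths came from GENCODE M21, which held 98.5% of the gene identifiers.

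From the counts, edgeR 4.0.16 in R 4.3.3 kept 15071 of 48023 genes (filterByExpr by group). TMM scaling and a quasi-likelihood fit of one mean per group, with no covariate, used the 18 libraries together. Benjamini-Hochberg adjustment ran over all genes tested, at an FDR under 0.05, with the study's 0.25 as an alternative. SE is that implied by the F statistic. CPM uses the TMM-scaled total of genes kept, and n is 3 libraries per group. Depths were 24327816 to 33471980 counts, and a floor of 3 counts covers counting error only. Groups came from the sample labels. Alternatives were limma 3.58.1 with voom, DESeq2 1.42.0, upper-quartile factors or plain library sizes in place of TMM, a minimum of 10 counts in each library or no filter at all, a fit restricted to the libraries compared, a replicate block, an added 2-fold threshold, and leaving out each library. On simulated counts for the 24 h effect, 174 of 198 changed genes (87.9%) were recovered with 9 false calls among 14646 genes. The simulation changed few genes and gave every gene the same spread, whereas 73.8% of genes were called in the data at 24 h. It therefore does not measure the scaling or the rate of false calls under the conditions of these data.

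The 10 genes are named whatever their values. In each pathway list and time, genes were named from the 2 largest changes in either direction with an FDR under 0.05 and a mean of at least 1 CPM over the libraries, and Ucp1, which the study is about, was added. Adora2a was named for its low counts with vehicle, and Adcy6 as the most abundant cyclase listed. For each NR4A gene the patterns of highest correlation were named. The 5 genes that set one vehicle library apart were named after their values were seen. The members and lists were chosen with earlier results of these data known. Promoter windows came from RefSeq on GRCm38.p6. Some genes that this rule names are not reported here.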

Additional observations from a re-analysis of the deposited data

Results flagged for a closer look

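For 9 of the 10 genes, all but Pde4d, the FGF6 effect differed between at least one pair of times by a test of the difference itself (edgeR's quasi-likelihood interaction, Benjamini-Hochberg adjusted), which 64.4% of all genes also passed. The values below are log2 differences, the later effect minus the earlier.

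Nr4a1 gave 0.76 from 4 to 8 h (FDR = 8.62e-05), -1.10 from 8 to 24 h (FDR = 7.13e-08), and -0.33 from 4 to 24 h (FDR = 0.0236). The last of these calls was lost in 6 of the 12 fits that left out one library, for example at -0.30 (FDR = 0.0578) without the vehicle library of replicate 3 at 24 h, and with library sizes alone (FDR = 0.106). Nr4a2 gave 0.59 from 4 to 8 h (FDR = 0.00646) and 0.76 from 4 to 24 h (FDR = 0.000139). Nr4a3 gave -0.98 from 4 to 24 h (FDR = 0.0253), a call lost in 5 of 12 such fits, down to -0.71 (FDR = 0.134) without the FGF6 library of replicate 2 at 4 h. The vehicle level of Nr4a1 fell and then rose over the same times, so its difference rests on both groups.

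Crem gave 1.90 from 8 to 24 h (FDR = 1.44e-10) and 1.90 from 4 to 24 h (FDR = 1.15e-10). Pde4b gave 0.83 from 4 to 8 h (FDR = 1.69e-07), 0.50 from 8 to 24 h (FDR = 4.88e-05), and 1.33 from 4 to 24 h (FDR = 4.01e-12). For Rgs2 the difference was 0.64 from 8 to 24 h (FDR = 0.0228, lost in 3 of 12 fits) and 0.85 from 4 to 24 h (FDR = 0.00419). In these genes the FGF6 libraries rose toward or above vehicle.

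Gem gave -0.23 from 4 to 8 h (FDR = 0.049), -1.14 from 8 to 24 h (FDR = 6.27e-11), and -1.37 from 4 to 24 h (FDR = 1.04e-12). The first of these was lost in 11 of 12 fits that left out one library and in 6 of 9 processing alternatives, among which the FDR under 0.25 could lose no call. Sik1 gave -0.25 from 4 to 8 h (FDR = 0.0262) and -0.33 from 4 to 24 h (FDR = 0.00151). The 4 to 8 h value of Sik1 was lost in 7 of 12 fits, down to -0.15 (FDR = 0.15) without the FGF6 library of replicate 3 at 8 h. Per1 gave 0.24 from 4 to 8 h (FDR = 0.0366) and -0.32 from 8 to 24 h (FDR = 0.00282). The 4 to 8 h value of Per1 was lost in 6 of 12 fits, for example at an FDR of 0.122 without the FGF6 library of replicate 1 at 8 h. In Gem the vehicle level changed and the FGF6 level stayed near 15 CPM.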

How the results depend on the processing

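All 30 FGF6 effects on the 10 genes kept their sign under the 9 processing alternatives. The alternative with an FDR under 0.25 reuses the main fit, so it could not have changed a sign or lost a call. The call for Nr4a3 at 8 h was lost with limma-voom (FDR = 0.0675) and with only the libraries compared (FDR = 0.0586), and Gem at 4 h was called with library sizes alone (FDR = 0.0152). Nr4a1 at 24 h was called as lower with limma-voom (FDR = 0.042), without a filter (FDR = 0.0358), and with only the libraries compared (FDR = 0.0142). Among differences between times, the 4 to 8 h call for Gem was lost with DESeq2 (FDR = 0.0995), upper-quartile factors (0.0608), library sizes alone (0.104), no filter (0.137), and only the libraries compared (0.106). That for Sik1 was lost with library sizes alone (FDR = 0.0599) and only the libraries compared (0.0612), and the 4 to 24 h difference of Pde4d was called with library sizes alone (0.23, FDR = 0.0351). With an FDR under 0.25, 1 gene was higher at 4 h. With at least 2-fold required, 3 genes were lower at 4 h, 0 higher and 2 lower at 8 h, and 1 higher and 3 lower at 24 h, 0, 3, and 3 effects differed between 4 and 8, 8 and 24, and 4 and 24 h, and 0 and 3 genes differed between vehicle at 4 and 8 h and at 8 and 24 h. With single libraries left out, the genes called higher numbered 0 to 1 at 4 h, 2 at 8 h, and 2 to 3 at 24 h, and those called lower 4 to 7, 5 to 8, and 6. Effects differed for 3 to 5 genes between 4 and 8 h, 5 to 7 between 8 and 24 h, and 6 to 8 between 4 and 24 h, and vehicle for 4 to 7 and 6 to 9 genes. With 2 libraries left in a group, the pooled spread was assumed for it.

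Signs changed only for small values far from the threshold. The Crem difference from 4 to 8 h was 0.00208 with limma-voom, 0.0133 with DESeq2, 0.0366 with library sizes alone, 0.0110 with upper-quartile factors, 0.000626 without a filter, and 0.0173 with only the libraries compared, and ran from -0.0570 to 0.0972 with one library left out. The Per1 difference from 4 to 24 h was 0.0119 with library sizes alone, and the Pde4d difference from 4 to 8 h was -0.00268 with at least 10 counts in every library. With one library left out, the difference ran from -0.0284 to 0.0778 for Pde4d and from -0.286 to 0.203 for Nr4a3 between 4 and 8 h, and from -0.152 to 0.000216 for Sik1 between 8 and 24 h. The Nr4a2 effect at 4 h ran from -0.244 to 0.0165, and the vehicle change of Per1 between 4 and 8 h from -0.0973 to 0.00872.

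Libraries with the same replicate number had correlations of their deviations from the group means of -0.18 to 0.155 over 9433 genes. These weak values do not settle whether such libraries were handled together, which the sources used here do not state. Nr4a3 read higher in replicate 1 than in replicate 3 in every group. With the replicate number as a block, 0 genes were higher and 7 lower at 4 h, 2 and 8 at 8 h, and 2 and 7 at 24 h, where Nr4a1 was added. Effects differed for 5, 7, and 8 genes between 4 and 8, 8 and 24, and 4 and 24 h, with Gem lost from the first (FDR = 0.0573) and Nr4a3 added to the second (FDR = 0.0396). Depth limits Nr4a3 most, at 12 to 75 counts per library.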
